A study of Homo sapiens with 8 samples.

Results

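The comparison described here is the addition of all-trans retinoic acid (ATRA) to L-ascorbic acid (LAA, vitamin C) in U-937 cells, an established human pro-monocytic leukemia line. Cells that received 250 µM LAA together with 1 µM ATRA for 72 h were set against cells that received 250 µM LAA alone for the same time. The libraries were chosen by their labelled treatment, 2 with LAA+ATRA and 2 with LAA, which makes 4 of the 8 libraries of the study. The other 4 libraries, 2 from cells in vehicle (PBS and DMSO) and 2 from cells in 1 µM ATRA alone, were used to estimate the spread and to set the same ATRA step without LAA beside the main one. All cells of the comparison carried LAA, so neither group was untreated, and all came from a single cell line. The question was which genes ATRA moves in cells that also receive ascorbate. Of 61125 genes in the count table, 14995 had enough counts to be tested. Since no label states that replicates are separate cultures, p-values here reflect the spread of these libraries alone, and that spread may be technical.

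ATRA is the ligand of the retinoic acid receptors RARA, RARB and RARG, which bind DNA as partners of the retinoid X receptors and switch from repression to activation of their target genes when the ligand is present. In myeloid leukemia cells the compound is known for driving differentiation towards cells that carry CD11b, produce superoxide and stop dividing. Ascorbate keeps the iron of 2-oxoglutarate dioxygenases reduced, a class that includes the TET enzymes, which oxidise 5-methylcytosine in DNA. The series title names TET2 in connection with the pairing of the 2 compounds.

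The 8 libraries held from 18462552 to 24166770 estimated counts, and of the 4 compared those with LAA held 19376377 and 18462552, those with LAA+ATRA 19294594 and 20749058. Between 6.08% and 11.6% of a library fell on its 10 most abundant genes. The identity of the line was checked with 8 markers of monocytic cells, all of which had counts in the 4 libraries, with a sum of 2611 and 2763 CPM (counts per 1000000, scaled to library size) with LAA+ATRA and 1700 and 1779 CPM with LAA. MPO among them was nearly absent, at 0.839 and 0.603 CPM with LAA+ATRA and 0.298 and 0.158 CPM with LAA. Of 16 markers of T, B and natural killer cells, 7 to 9 were at 0 in a library, CD3D, CD3E and MS4A1 among them, and their sum, 301 and 320 CPM in the LAA libraries against 382 and 372 CPM with LAA+ATRA, came mostly from NKG7 (275 to 364 CPM). Of 18 markers of erythroid, megakaryocyte, mast and eosinophil cells, 10 to 12 were at 0, GATA1 and HBB among them. The rest of that sum came mostly from the mast cell tryptase TPSAB1, with 334 and 381 CPM with LAA and 134 and 101 CPM with LAA+ATRA, and both libraries with LAA+ATRA lay below both with LAA (log2 fold change -1.61 ± 0.14, adjusted p = 2.7e-06). The part of these 2 genes in other results was not tested. In bulk samples, fewer cells of a type and less RNA per cell cannot be told apart.

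The promoters of 4 genes that rose are shown because retinoic acid receptors bind pairs of a short half-site arranged as direct repeats. Each sequence is the 250 bases before the start site from RefSeq on GRCh38.p14, written 5′ to 3′ on the strand of the gene. Capitals mark the half-site AGGTCA or its forms that read GGGTCA, or else AGTTCA, or else GGTTCA, and, for a direct repeat, the whole stretch with its spacer. RARB, at chr3:25428013-25428262 on the plus strand, and BATF2, at chr11:64990278-64990527 on the minus strand, hold a direct repeat with 5 bases between the half-sites. CD38, at chr4:15778078-15778327 on the plus strand, holds a single half-site, and DAAM2, at chr6:39792126-39792375 on the plus strand, holds none in this window.
RARB: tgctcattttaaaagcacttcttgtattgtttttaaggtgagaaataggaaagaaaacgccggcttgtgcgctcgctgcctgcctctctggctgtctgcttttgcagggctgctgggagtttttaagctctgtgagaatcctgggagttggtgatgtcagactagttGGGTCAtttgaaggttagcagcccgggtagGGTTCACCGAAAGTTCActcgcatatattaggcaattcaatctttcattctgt
BATF2: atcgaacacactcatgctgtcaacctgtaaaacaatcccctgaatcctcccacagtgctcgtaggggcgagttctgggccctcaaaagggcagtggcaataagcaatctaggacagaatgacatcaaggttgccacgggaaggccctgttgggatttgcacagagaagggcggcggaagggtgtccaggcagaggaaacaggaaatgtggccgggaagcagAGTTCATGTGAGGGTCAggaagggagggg
CD38: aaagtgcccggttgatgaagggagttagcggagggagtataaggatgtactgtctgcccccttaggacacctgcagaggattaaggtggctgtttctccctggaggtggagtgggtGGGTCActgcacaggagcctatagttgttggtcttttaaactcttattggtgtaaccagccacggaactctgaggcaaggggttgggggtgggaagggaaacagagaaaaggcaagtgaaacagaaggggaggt
DAAM2: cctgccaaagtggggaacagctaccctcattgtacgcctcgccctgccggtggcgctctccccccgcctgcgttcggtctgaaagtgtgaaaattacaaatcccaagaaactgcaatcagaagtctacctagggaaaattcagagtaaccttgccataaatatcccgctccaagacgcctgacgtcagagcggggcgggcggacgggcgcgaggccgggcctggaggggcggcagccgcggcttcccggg

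The search covered both strands of the 250 bases before the start and any pair of the 4 half-sites with 1, 2 or 5 bases between them. The repeat of RARB, GGTTCANNNNNAGTTCA, lies from position -53 to -37 relative to the start, and that of BATF2, AGTTCANNNNNGGGTCA, from -29 to -13. The half-site of CD38, GGGTCA, lies from -134 to -129. Half-sites alone were common, and were found in 34% of the 27305 promoters of the table, in 28.1% of the 10688 that belong to genes tested, in 29.8% of the 638 of genes that rose at least 2-fold and in 24.7% of the 469 of genes that fell at least 2-fold. Direct repeats were found in 55 promoters of the table (0.201%) and in 22 of the genes tested (0.206%). Of those 22 genes, 9 were called in the comparison, 6 higher and 3 lower, a share near the 36.4% called over all genes tested. Of genes that rose at least 2-fold, 3 held one (0.47%), which are RARB, BATF2 and BTBD19, and of genes that fell at least 2-fold 0 did. BTBD19 carries GGTTCANAGTTCA on the opposite strand, from -193 to -181. A match is a description of these letters and not a measured binding site. NOG and TGM2 have no entry in the promoter table.

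RARB, itself a receptor for retinoic acid and a known target of its own ligand, had 5.14 and 4.78 CPM with LAA+ATRA and 0.0993 and 0.21 CPM with LAA. Both libraries with LAA+ATRA lay above both with LAA (log2 fold change 4.96 ± 0.44, adjusted p = 4.14e-06), at 6 counts in all in the LAA libraries. BATF2, a transcription factor of the AP-1 group that responds to interferon, had 21.9 and 23.6 CPM with LAA+ATRA and 0.546 and 0.998 CPM with LAA, again without overlap (log2 fold change 4.88 ± 0.26, adjusted p = 5.42e-08). BTBD19, of the BTB domain family, was low in all 4 libraries, with 1.9 and 1.71 CPM with LAA+ATRA and 0.347 and 0.42 CPM with LAA (log2 fold change 2.22 ± 0.59, adjusted p = 0.0106), and was not called without LAA replicate 1 (adjusted p = 0.0706). BATF2 and BTBD19 were singled out for their promoters after their values were seen.

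Across the transcriptome, adding ATRA to LAA changed 5451 of 14995 genes in the edgeR quasi-likelihood test at an adjusted p under 0.05, which is 36.4% of the genes tested. Of these, 2754 rose (18.4%) and 2697 fell (18%). A change of at least 2-fold was found in 1668 genes (11.1%), of which 987 rose (6.58%) and 681 fell (4.54%). By fitted log2 fold change, rises outnumbered falls at each of the sizes counted. For genes with no counts in one group, the fitted value depends on the small count that the fit adds. Calls among such genes numbered 34 with no LAA counts and 18 with no LAA+ATRA counts. IP6K3, for example, was fitted at 491-fold higher, while its counts bound the change at no less than 40.1-fold. At least 4-fold changes comprised 380 rises and 194 falls, at least 8-fold changes 201 and 89, at least 16-fold changes 111 and 39, at least 32-fold changes 63 and 24, and at least 64-fold changes 49 and 16. The median log2 fold change over all genes was 0.00, and the median size of the change was 0.39. Of protein-coding genes, 40.7% of 12324 were called, and of long non-coding RNAs 16.8% of 1717, at median levels in the higher group of 31.3 CPM and 1.58 CPM. In LAA+ATRA against LAA, both libraries of one group lay above both of the other for 68.8% of all genes tested. That share is the background for every statement of that kind about these groups. Each called gene named here showed it too.

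**Figure D1:**
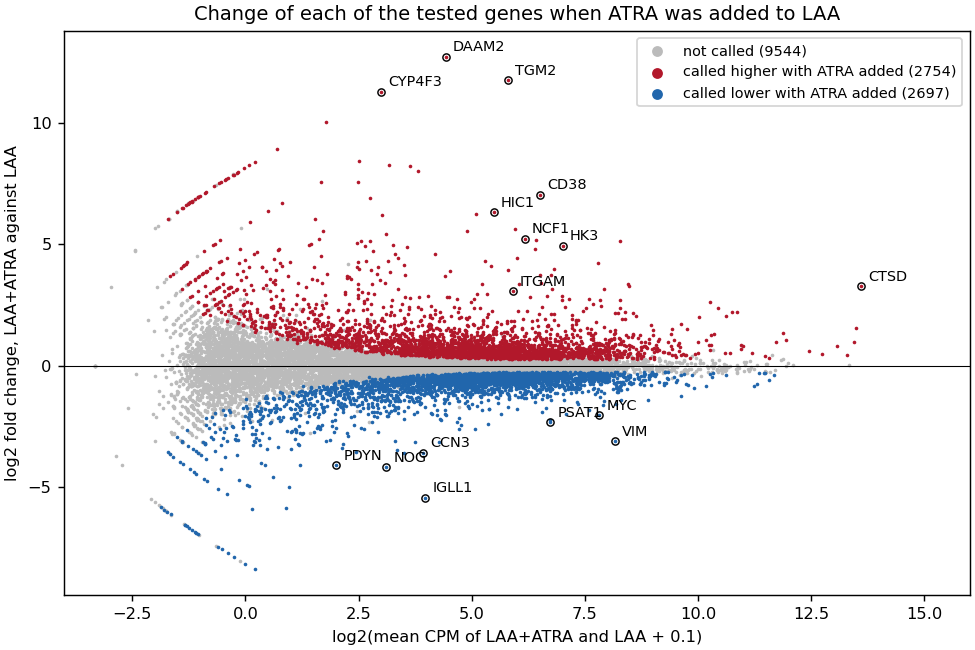
Each point is 1 of the 14995 genes tested, with the log2 of its mean CPM over the LAA+ATRA and LAA libraries plus 0.1 on the x axis and its log2 fold change with ATRA added on the y axis, coloured by the call. The 2754 genes called higher reach further from 0 than the 2697 called lower, and fitted values of genes with no counts in one group depend on the small count that the fit adds.

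The 4 genes chosen as markers of the step moved far in both directions. CD38, a surface enzyme that consumes NAD and a classical retinoid target, had 169 and 192 CPM with LAA+ATRA and 1.29 and 1.42 CPM with LAA. Both libraries with LAA+ATRA stood far above both with LAA (log2 fold change 7.06 ± 0.17, adjusted p = 1.91e-10). DAAM2, a formin-related protein that acts on actin and WNT signalling, had 52.2 and 33.4 CPM with LAA+ATRA and no counts in either LAA library. Its level was at least 559-fold higher against the floor of 3 counts over the LAA group, which is 0.0766 CPM (adjusted p = 1.17e-07). NOG, the secreted BMP antagonist noggin, had 15.5 and 16.8 CPM with LAA and 1.01 and 0.754 CPM with LAA+ATRA, with no overlap (log2 fold change -4.2 ± 0.22, adjusted p = 4.64e-08). CCN3, a matricellular protein of the CCN family, had 26.2 and 29.8 CPM with LAA and 1.96 and 2.67 CPM with LAA+ATRA, and again both libraries with ATRA lay below both without it (log2 fold change -3.59 ± 0.18, adjusted p = 2.64e-08). On GRCh38 in the GENCODE 29 annotation, CD38 (ENSG00000004468.13) spans chromosome 4 from 15778275 to 15853230 and DAAM2 (ENSG00000146122.17) chromosome 6 from 39792298 to 39904877. NOG (ENSG00000183691.6) spans chromosome 17 from 56593699 to 56595590 and CCN3 (ENSG00000136999.5) chromosome 8 from 119416306 to 119424353. All 4 are protein-coding and on the plus strand.

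Several genes went from no or almost no counts to clear expression. In all, 55 genes tested had no counts in either LAA library, and 34 of these were called. They passed the low-count filter through other groups alone, so any call among them had to be higher. CYP4F3, a cytochrome P450 that inactivates leukotriene B4, had 14.7 and 16.8 CPM with LAA+ATRA and none with LAA, at least 206-fold higher (adjusted p = 2.55e-07). ARL14EPL had 7.44 and 5.83 CPM (at least 86.7-fold), IP6K3, an inositol hexakisphosphate kinase, 3.02 and 3.12 CPM (at least 40.1-fold) and ADGRE3, an adhesion receptor of myeloid cells, 1.85 and 1.66 CPM (at least 22.9-fold). TGM2, the protein crosslinking enzyme transglutaminase 2 and one of the best known retinoid targets of myeloid cells, had 125 and 98 CPM with LAA+ATRA and 1 count in the LAA libraries together. The ratio of its rates was 4341, with an exact 95% interval from 779 to 171490 that covers counting error only (adjusted p = 3.45e-09). In the other direction, 40 genes tested had no counts in either LAA+ATRA library, and for these the direction was fixed in the same way. Of the 40, 18 were called, so a bound alone is not a call. The proapoptotic BH3-only gene HRK was at 1.24 and 2.36 CPM with LAA and at 0 with LAA+ATRA, at least 22.7-fold lower. LRRC14B (at least 26.5-fold), DAB2IP, a RAS GTPase activator (at least 16.7-fold), the granzyme GZMA (at least 14-fold) and SH2D5 (at least 9.72-fold) also had no counts with LAA+ATRA, from no more than 2.63 CPM with LAA.

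Other large rises were in genes with few counts in the LAA libraries. PTGES, prostaglandin E synthase, had 12.2 and 9.96 CPM with LAA+ATRA and 0 and 0.0525 CPM with LAA, a ratio of 433 with an exact 95% interval from 77.2 to 17128. SIGLEC11, a sialic-acid receptor, had 17.7 and 17.8 CPM with LAA+ATRA and 0 and 0.105 CPM with LAA, a ratio of 348 (95.8 to 2876), and its near-identical pseudogene makes the count uncertain. The purinergic receptor P2RY13 had 17.5 and 31.9 CPM with LAA+ATRA and 0.149 and 0 CPM with LAA, a ratio of 327 (112 to 1591). Both LAA+ATRA libraries were far above both LAA libraries for each of the 3 genes, although for P2RY13 they differed from each other by nearly as much as 2-fold. The kinase MYLK3 had 12.9 and 9.25 CPM with LAA+ATRA and 0.0496 and 0.0525 CPM with LAA (ratio 215, interval 59.1 to 1779) and the adhesion molecule CEACAM1 5.54 and 6.69 CPM with LAA+ATRA and 0.0496 and 0 CPM with LAA (ratio 241, interval 42.8 to 9547). The eotaxin CCL24 had 36.3 and 19.6 CPM with LAA+ATRA and 0.0993 and 0.105 CPM with LAA (log2 fold change 8.01 ± 0.48, adjusted p = 1.43e-07). VSIG4, a complement receptor of tissue macrophages, had 9.9 and 16.3 CPM with LAA+ATRA and 0.199 and 0 CPM with LAA (log2 fold change 6.92 ± 0.52, adjusted p = 1.01e-06).

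**Figure D2:**
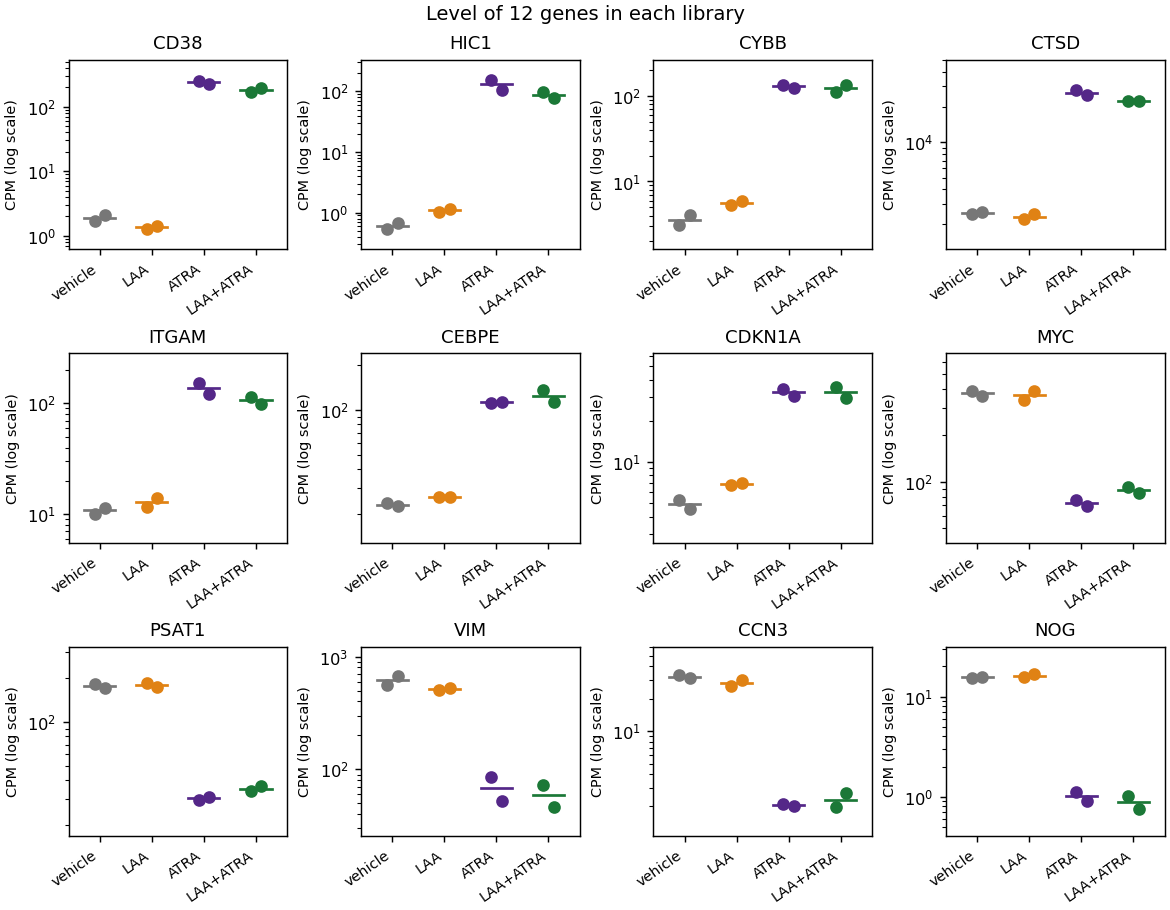
Each panel plots the CPM of 1 gene on a log axis in the 8 libraries, with a point for each of the 2 libraries of a group and a line at their mean. CD38, HIC1, CYBB, CTSD, ITGAM, CEBPE and CDKN1A lie higher and MYC, PSAT1, VIM, CCN3 and NOG lower in both LAA+ATRA libraries than in both LAA libraries.

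The largest falls included a surrogate light chain, an opioid precursor and a cytoskeletal gene. IGLL1, the surrogate light chain of early B-lineage cells, which has close relatives in the genome, had 30.7 and 30.4 CPM with LAA and 1.12 and 0.302 CPM with LAA+ATRA (log2 fold change -5.45 ± 0.28, adjusted p = 4.07e-08). PDYN, which encodes the opioid precursor prodynorphin, had 7.69 and 7.14 CPM with LAA and 0.447 and 0.402 CPM with LAA+ATRA (log2 fold change -4.11 ± 0.30, adjusted p = 8.02e-07). The intermediate filament VIM was the most abundant of the large falls, with 504 and 524 CPM with LAA and 72.5 and 46.8 CPM with LAA+ATRA (log2 fold change -3.11 ± 0.23, adjusted p = 8.13e-07). Each of these genes had both LAA+ATRA libraries below both LAA libraries. DNAAF3, a dynein assembly factor, fell with a log2 fold change of -3.58 ± 0.28, the transcriptional cofactor LMO1 of -3.5 ± 0.36, the adenylate kinase AK5 of -3.39 ± 0.30, the Golgi protein FJX1 of -3.25 ± 0.33, the peptide hormone ADM2 of -3.12 ± 0.31 and CTXN1 of -3.16 ± 0.28, all at an adjusted p of at most 1.49e-05.

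Gene lists put these genes in context. The 34 lists hold 744 distinct genes that were tested, of which 263 rose and 183 fell. Over all genes tested, 18.4% rose and 18% fell, the shares to set beside each list. At 59.9% called, the lists moved more often than the 36.4% of all genes, but they were chosen with results of these data known.

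**Figure D3:**
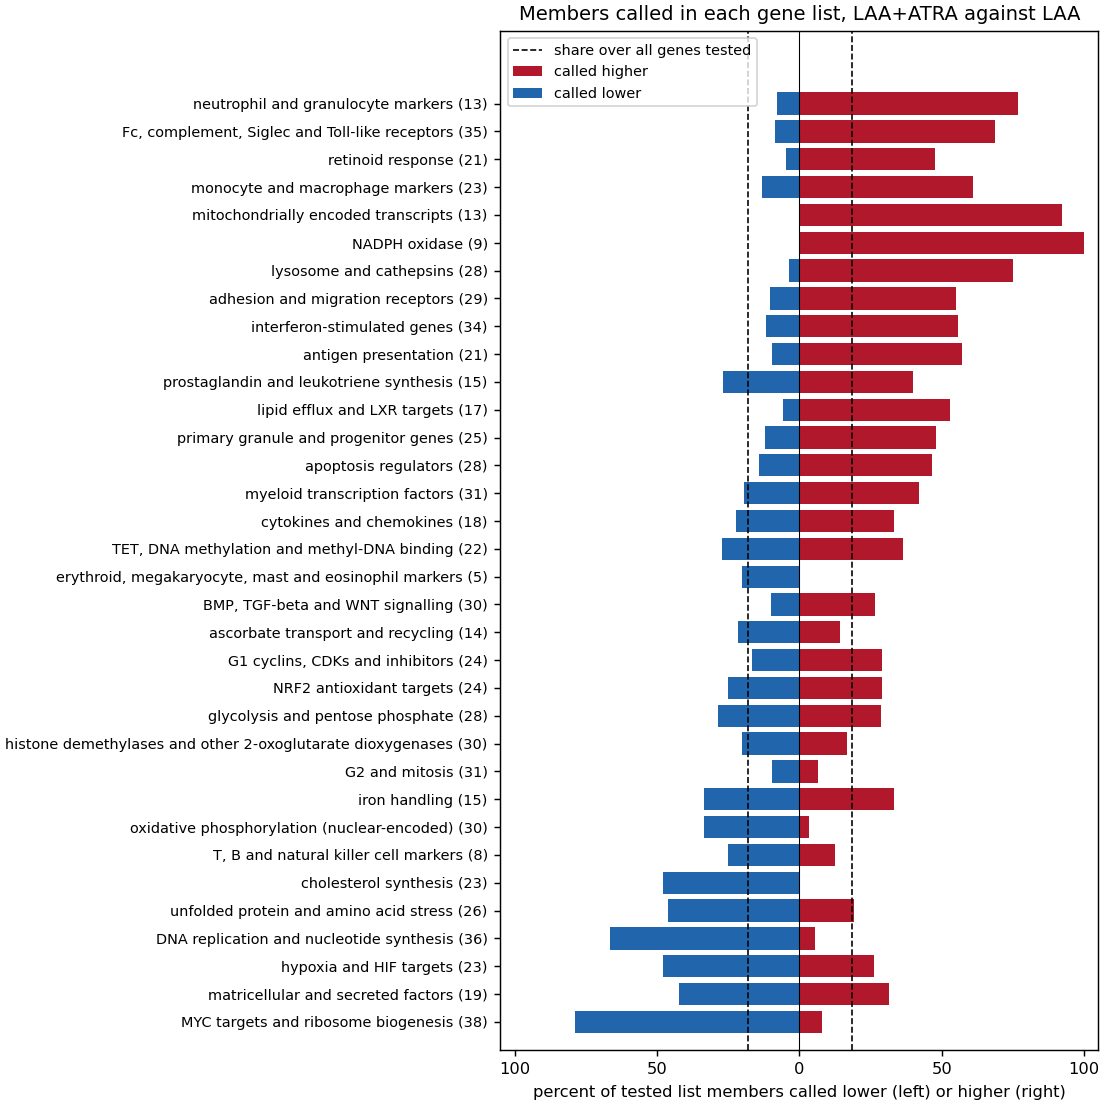
Bars give, for each gene list with its number of tested members in parentheses, the percent of members called lower (left) and higher (right), ordered by the median log2 fold change, and dashed lines give the share over all genes tested (18.4% higher and 18% lower). NADPH oxidase and mitochondrially encoded transcripts have no member called lower, and MYC targets and DNA replication genes have most of theirs called lower.

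Genes of retinoid metabolism and signalling were mostly higher or not called. Of 33 genes of the retinoid response, 21 were tested, 10 rose and 1 fell, with a median log2 fold change of 1.22. DHRS3, a retinal reductase that lowers the supply of retinoic acid, had 183 and 143 CPM with LAA+ATRA and 5.61 and 6.15 CPM with LAA (log2 fold change 4.79 ± 0.16, adjusted p = 1.48e-09). HIC1, a transcriptional repressor, had 97.9 and 78.7 CPM with LAA+ATRA and 1.04 and 1.16 CPM with LAA (log2 fold change 6.32 ± 0.25, adjusted p = 4.52e-09). The receptor RARA was not called, with 62 and 51.4 CPM with LAA+ATRA and 44.6 and 53.1 CPM with LAA (log2 fold change 0.22 ± 0.14, adjusted p = 0.259), and its libraries differed by less than the test could separate. RARG, the member that fell and was named after its values were seen, had 12.9 and 15 CPM with LAA and 8.89 and 7.39 CPM with LAA+ATRA (log2 fold change -0.78 ± 0.18, adjusted p = 0.00561) and was not called without LAA replicate 2 (adjusted p = 0.0571). The number called lower was 3 without ATRA replicate 1 or ATRA replicate 2 and 2 without LAA+ATRA replicate 1.

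Transcription factors of the myeloid lineage moved in both directions. Of 31 tested, 13 rose and 6 fell, with a median of 0.25. SPI1, the PU.1 factor that directs myeloid fate, had 419.7 and 355 CPM with LAA+ATRA and 175 and 182 CPM with LAA (log2 fold change 1.12 ± 0.11, adjusted p = 7.36e-06). CEBPE, which drives late granulocytic maturation, had 136 and 112 CPM with LAA+ATRA and 26.1 and 26 CPM with LAA, and CEBPB, which acts in monocytes and under stress, 633 and 614 CPM with LAA+ATRA and 136 and 143 CPM with LAA. Both rose, with log2 fold changes of 2.25 ± 0.11 and 2.16 ± 0.11. ID1, an inhibitor of basic helix-loop-helix factors and a target of BMP signalling, had 64.1 and 97.1 CPM with LAA+ATRA and 4.62 and 4.78 CPM with LAA (log2 fold change 4.1 ± 0.19, adjusted p = 2.09e-08). Without LAA replicate 2, 3 members of this list were called lower in place of 6.

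In the BMP, TGF-beta and WNT list, 8 of 30 tested genes rose and 3 fell, with a median of 0.11. The share called was near the 36.4% of all genes. The falls were NOG, the inhibitor of differentiation gene ID3 and the WNT co-receptor LRP5, of which the last 2 were named after their values were seen. ID3 and ID1 thus changed in opposite directions, with 1.89 and 1.84 CPM with LAA and 0.168 and 0.402 CPM with LAA+ATRA for ID3 (log2 fold change -2.66 ± 0.62, adjusted p = 0.00528). ACVRL1, a type I receptor for BMP9, had 10.2 and 9.1 CPM with LAA+ATRA and 0.844 and 1.73 CPM with LAA (log2 fold change 2.91 ± 0.28, adjusted p = 7.62e-06). Without LAA replicate 1 or without LAA+ATRA replicate 2, 5 members were called higher.

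Monocyte and macrophage markers were mostly higher. Of 31 genes, 23 were tested, 14 rose and 3 fell, with a median of 1.04. CTSD, the lysosomal protease cathepsin D, was among the most abundant transcripts of the cells, with 22475 and 22600.4 CPM with LAA+ATRA and 2226 and 2442 CPM with LAA (log2 fold change 3.27 ± 0.10, adjusted p = 1.08e-09). The scavenger receptor CD36 had 175 and 249 CPM with LAA+ATRA and 12.4 and 14.2 CPM with LAA (log2 fold change 3.99 ± 0.18, adjusted p = 1.23e-08), the macrosialin CD68 410.3 and 379.9 CPM with LAA+ATRA and 57.3 and 65 CPM with LAA (log2 fold change 2.69 ± 0.12, adjusted p = 1.09e-08) and MERTK, a receptor for the uptake of dying cells, 48.5 and 51.9 CPM with LAA+ATRA and 14.1 and 16.4 CPM with LAA (log2 fold change 1.72 ± 0.12, adjusted p = 4.67e-07). LAA+ATRA libraries were above LAA libraries without overlap in each. The 3 falls, named after their values were seen, were the galectin LGALS3 (-1.81 ± 0.16), the ficolin FCN1 (-1.16 ± 0.21) and the proteoglycan VCAN, the last at under 1 CPM in every library compared and not called when any 1 of the vehicle, LAA or LAA+ATRA libraries was left out (adjusted p from 0.054 to 0.283).

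Of 24 neutrophil and granulocyte genes, 13 were tested, 10 rose and 1 fell, with a median of 1.72. The calgranulin S100A9 had 63.4 and 58.6 CPM with LAA+ATRA and 7.34 and 8.56 CPM with LAA (log2 fold change 2.94 ± 0.16, adjusted p = 5.56e-08). CSF3R, the receptor for G-CSF, had 257 and 230.1 CPM with LAA+ATRA and 72.4 and 75.1 CPM with LAA (log2 fold change 1.72 ± 0.12, adjusted p = 4.15e-07), and HP, haptoglobin, 10.5 and 13.3 CPM with LAA+ATRA and 0.496 and 0.263 CPM with LAA (log2 fold change 4.94 ± 0.30, adjusted p = 1.35e-07). The fall was of MMP9, a gelatinase of secondary and tertiary granules, which had 2.23 and 2 CPM with LAA and 0.783 and 0.251 CPM with LAA+ATRA and lost the call when LAA replicate 1 (adjusted p = 0.0964), LAA replicate 2 (0.0707) or LAA+ATRA replicate 2 (0.155) was left out. Among 25 primary granule and progenitor genes, 12 rose and 3 fell, with a median of 0.39. The serine protease PRTN3 had 2479 and 2576 CPM with LAA+ATRA and 618 and 601 CPM with LAA (log2 fold change 2.05 ± 0.10, adjusted p = 2.6e-08) and CFD, the complement protease factor D, 639 and 453 CPM with LAA+ATRA and 117 and 121 CPM with LAA (log2 fold change 2.2 ± 0.15, adjusted p = 3.83e-07). The falls were IGLL1, MYC and the progenitor factor MYB (-0.34 ± 0.11), which was not called without either LAA library, either vehicle library or LAA+ATRA replicate 1 (adjusted p from 0.0604 to 0.222).

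All 9 tested subunits and partners of the phagocyte NADPH oxidase, the enzyme of the respiratory burst, rose, with a median log2 fold change of 0.87, and 5 of the 14 genes of the list were too low to test. The members differed widely in size. CYBB, the catalytic gp91phox chain, had 109 and 135 CPM with LAA+ATRA and 5.26 and 5.99 CPM with LAA (log2 fold change 4.44 ± 0.15, adjusted p = 1.53e-09), and CYBA, its membrane partner p22phox, 893 and 627 CPM with LAA+ATRA and 264 and 288 CPM with LAA (log2 fold change 1.46 ± 0.14, adjusted p = 8.4e-06). NCF1, the cytosolic p47phox, had 152 and 129 CPM with LAA+ATRA and 4.17 and 3.26 CPM with LAA (log2 fold change 5.24 ± 0.18, adjusted p = 1.48e-09), and its near-identical pseudogenes make the count uncertain. For each of these subunits both LAA+ATRA libraries were above both LAA libraries.

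Most surface receptors that changed were higher. Of 29 adhesion and migration receptors tested, 16 rose and 3 fell, with a median of 0.86. ITGAM, the CD11b integrin chain used as a marker of myeloid differentiation, had 115 and 99 CPM with LAA+ATRA and 11.6 and 14 CPM with LAA (log2 fold change 3.06 ± 0.15, adjusted p = 2.8e-08). ITGA6, a laminin-binding integrin chain, had 465 and 551 CPM with LAA+ATRA and 133 and 138 CPM with LAA (log2 fold change 1.91 ± 0.11, adjusted p = 9.31e-08), the chemokine receptor CCR1 39.4 and 36.7 CPM with LAA+ATRA and 5.71 and 5.1 CPM with LAA (log2 fold change 2.81 ± 0.13, adjusted p = 1.53e-08) and the leukotriene B4 receptor LTB4R 258 and 239 CPM with LAA+ATRA and 65 and 70.5 CPM with LAA (log2 fold change 1.87 ± 0.11, adjusted p = 1e-07). ICAM2, CD44 and CD47 fell and were named after their values were seen, with log2 fold changes of -0.95 ± 0.21, -0.35 ± 0.10 and -0.46 ± 0.11. CD44 was not called without LAA replicate 1 (adjusted p = 0.0553) or LAA replicate 2 (0.103).

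Of 35 tested Fc, complement, Siglec and Toll-like receptors with their adaptors, 24 rose and 3 fell, with a median of 1.26. TYROBP, the signalling adaptor DAP12, had 257 and 189 CPM with LAA+ATRA and 33.8 and 33.7 CPM with LAA (log2 fold change 2.72 ± 0.14, adjusted p = 3.32e-08). FCGRT, the receptor that recycles IgG, had 682 and 599.7 CPM with LAA+ATRA and 152 and 161 CPM with LAA (log2 fold change 2.03 ± 0.11, adjusted p = 4.07e-08), and the inhibitory receptor LILRB2 62.3 and 59.8 CPM with LAA+ATRA and 10.7 and 12.9 CPM with LAA (log2 fold change 2.37 ± 0.12, adjusted p = 3.59e-08). None of these 3 overlapped between the groups. The falls, named after their values were seen, were FCGR2A (-0.47 ± 0.13), FCGR2B (-1.16 ± 0.16) and TLR9 (-1.59 ± 0.54), and without LAA replicate 2 FCGR2A (adjusted p = 0.0706) and TLR9 (0.135) were not called, which left 1 gene called lower. FCGR2A was also not called without LAA+ATRA replicate 2 (0.0869), nor TLR9 without LAA replicate 1 (0.0779) or LAA+ATRA replicate 1 (0.17).

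Lysosomal genes were mostly higher, with 21 of 28 called higher, 1 called lower and a median of 0.87. None was called lower when any 1 of the vehicle, LAA or LAA+ATRA libraries was left out. GRN, the lysosomal and secreted protein progranulin, had 2213 and 2032 CPM with LAA+ATRA and 325 and 362 CPM with LAA (log2 fold change 2.63 ± 0.11, adjusted p = 1.05e-08). PSAP, the precursor of saposins, had 1075 and 946 CPM with LAA+ATRA and 348 and 365 CPM with LAA (log2 fold change 1.5 ± 0.10, adjusted p = 5.25e-07), the peptidase TPP1 396 and 443 CPM with LAA+ATRA and 149 and 154 CPM with LAA (log2 fold change 1.47 ± 0.10, adjusted p = 4.35e-07) and the cathepsin CTSS 149 and 153 CPM with LAA+ATRA and 63.9 and 60 CPM with LAA (log2 fold change 1.29 ± 0.10, adjusted p = 9.8e-07). These abundant transcripts differed between replicates by far less than between groups.

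Lipid handling split by direction. Of 17 lipid efflux and LXR target genes tested, 9 rose and 1 fell, with a median of 0.43. NR1H3, the oxysterol receptor LXRα, had 68.5 and 46.4 CPM with LAA+ATRA and 9.68 and 7.46 CPM with LAA (log2 fold change 2.74 ± 0.19, adjusted p = 4.89e-07), the phospholipid transfer protein PLTP 419 and 365 CPM with LAA+ATRA and 68.7 and 72.6 CPM with LAA (log2 fold change 2.47 ± 0.11, adjusted p = 8.93e-09) and the lipid droplet protein PLIN2 78.9 and 93.1 CPM with LAA+ATRA and 44.2 and 45.8 CPM with LAA (log2 fold change 0.94 ± 0.11, adjusted p = 4.62e-05). The fall was of the HDL receptor SCARB1 (-0.54 ± 0.11), named after its values were seen. Cholesterol synthesis went the other way, with 11 of 23 genes lower, 0 higher and a median of -0.25. HMGCS1, a synthase of the pathway, had 203 and 168 CPM with LAA and 88.5 and 102 CPM with LAA+ATRA (log2 fold change -0.96 ± 0.13, adjusted p = 0.00011) and the regulator INSIG1 901 and 886 CPM with LAA and 618 and 512 CPM with LAA+ATRA (log2 fold change -0.66 ± 0.11, adjusted p = 0.000684). One cholesterol gene was called higher without ATRA replicate 1 or 2, and 2 were without LAA+ATRA replicate 2.

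Of 15 genes of prostaglandin and leukotriene synthesis, 6 rose and 4 fell, with a median of 0.44. PTGS1, the constitutive cyclooxygenase, had 682 and 599.5 CPM with LAA+ATRA and 64.9 and 67.4 CPM with LAA (log2 fold change 3.28 ± 0.11, adjusted p = 1.49e-09). ALOX5AP, the 5-lipoxygenase activating protein, had 316 and 359 CPM with LAA+ATRA and 51.2 and 50.4 CPM with LAA (log2 fold change 2.73 ± 0.11, adjusted p = 4.62e-09), and LTC4S, which makes leukotriene C4, 25.2 and 26 CPM with LAA+ATRA and 9.08 and 8.41 CPM with LAA (log2 fold change 1.55 ± 0.17, adjusted p = 2.27e-05). The 4 falls, named after their values were seen, were the synthases PTGES2 and PTGES3 and the prostaglandin E2 receptors PTGER2 and PTGER4, with log2 fold changes between -0.65 and -0.37, and 1 of the 4 was called without LAA replicate 1 or without LAA replicate 2 and 2 without LAA+ATRA replicate 1.

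Interferon and antigen presentation genes were also mostly higher. Of 34 interferon-stimulated genes tested, 19 rose and 4 fell, with a median of 0.82. IRF1, a transcription factor induced by interferon gamma and by retinoids, had 124 and 117 CPM with LAA+ATRA and 11.3 and 12.1 CPM with LAA (log2 fold change 3.37 ± 0.12, adjusted p = 1.58e-09). The antiviral synthetase OAS1 had 43.7 and 42.4 CPM with LAA+ATRA and 2.33 and 3.47 CPM with LAA (log2 fold change 3.9 ± 0.17, adjusted p = 1.03e-08), the mitochondrial protein IFI6 261 and 218 CPM with LAA+ATRA and 57.8 and 55.3 CPM with LAA (log2 fold change 2.08 ± 0.11, adjusted p = 5.17e-08) and the factor IRF7 26.8 and 26.8 CPM with LAA+ATRA and 6.85 and 6.57 CPM with LAA (log2 fold change 2.0 ± 0.14, adjusted p = 6.65e-07). Not all members of the group rose. The effectors MX2 (-0.43 ± 0.09), IFITM1 (-0.82 ± 0.18) and IFIT1 (-0.93 ± 0.28) and the protease USP18 (-0.72 ± 0.17) fell and were named after their values were seen, and IFIT1 was not called without LAA replicate 1 (adjusted p = 0.063), LAA replicate 2 (0.0946) or LAA+ATRA replicate 2 (0.107).

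In antigen presentation, 12 of 21 genes rose and 2 fell, with a median of 0.52. CD1D, which presents lipids, had 42.7 and 36.5 CPM with LAA+ATRA and 3.18 and 2.99 CPM with LAA (log2 fold change 3.68 ± 0.15, adjusted p = 7.05e-09), the peptide loading factor HLA-DMA 16.7 and 12.5 CPM with LAA+ATRA and 4.66 and 4.47 CPM with LAA (log2 fold change 1.67 ± 0.20, adjusted p = 4.05e-05) and the immunoproteasome subunit PSMB10 209.5 and 175 CPM with LAA+ATRA and 77 and 81 CPM with LAA (log2 fold change 1.28 ± 0.11, adjusted p = 2.63e-06). CIITA, the class II transactivator (-1.45 ± 0.40), and the peptide transporter TAP2 (-0.3 ± 0.11) fell and were named after their values were seen. CIITA was called neither when LAA replicate 2 was left out (adjusted p = 0.0748) nor when LAA+ATRA replicate 1 was (0.0819), and TAP2 was not called without LAA replicate 2 (0.343), either vehicle library (0.0731) or either LAA+ATRA library (0.0884 and 0.148).

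Among 18 tested cytokines and chemokines, 6 rose and 4 fell, against 18.4% and 18% of all genes tested, with a median of 0.24. Besides CCL24, the chemokine CCL23 had 28.2 and 28.8 CPM with LAA+ATRA and 3.87 and 3.89 CPM with LAA (log2 fold change 2.88 ± 0.20, adjusted p = 5.45e-07), and CXCL16, the ligand of CXCR6, 25.8 and 23.2 CPM with LAA+ATRA and 7.1 and 8.88 CPM with LAA (log2 fold change 1.62 ± 0.15, adjusted p = 6.87e-06). TNFSF13, the cytokine APRIL, had 33.9 and 34 CPM with LAA+ATRA and 13.2 and 11.7 CPM with LAA (log2 fold change 1.45 ± 0.13, adjusted p = 5.91e-06). The falls, named after their values were seen, were the chemokines CCL2 (-1.69 ± 0.27) and CCL5 (-0.8 ± 0.12), the interleukin-1 antagonist IL1RN (-1.45 ± 0.18) and IL32 (-0.78 ± 0.11). Of 19 matricellular and secreted factors, 6 rose and 8 fell, with a median of -0.54. TIMP1, a metalloproteinase inhibitor, had 332 and 377 CPM with LAA+ATRA and 173 and 172 CPM with LAA (log2 fold change 1.04 ± 0.11, adjusted p = 1.55e-05), while the angiogenic factor VEGFA had 125 and 114 CPM with LAA and 53.4 and 43 CPM with LAA+ATRA (log2 fold change -1.31 ± 0.13, adjusted p = 9.91e-06). Without LAA replicate 2, 5 secreted factors were called lower, and without LAA+ATRA replicate 2, 4 were.

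Growth genes fell. Of 38 tested MYC targets and ribosome biogenesis genes, 30 fell and 3 rose, with a median of -0.65. MYC, the proto-oncogene that drives ribosome production, had 340.2 and 387 CPM with LAA and 91.9 and 84.7 CPM with LAA+ATRA (log2 fold change -2.04 ± 0.11, adjusted p = 4.64e-08). NOLC1, a nucleolar chaperone of small ribonucleoproteins, had 349 and 362 CPM with LAA and 123 and 133 CPM with LAA+ATRA (log2 fold change -1.47 ± 0.09, adjusted p = 2.62e-07), the RNA polymerase I subunit POLR1B 73.5 and 82.2 CPM with LAA and 30.4 and 38.3 CPM with LAA+ATRA (log2 fold change -1.18 ± 0.12, adjusted p = 1.69e-05) and the ribosome assembly factor NOP16 71.9 and 70.8 CPM with LAA and 32.8 and 37.3 CPM with LAA+ATRA (log2 fold change -1.02 ± 0.11, adjusted p = 1.69e-05). All of these had both LAA+ATRA libraries below both LAA libraries. The 3 rises, named after their values were seen, were genes of MYC partners and antagonists, with log2 fold changes of 1.23 ± 0.13 for MXD4, 0.48 ± 0.16 for MXD3 and 0.31 ± 0.10 for MAX. Without LAA replicate 1, LAA replicate 2 or LAA+ATRA replicate 1, 1 of these 3 was called, and MAX was also not called without vehicle replicate 2 (adjusted p = 0.0504).

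DNA replication and nucleotide synthesis genes fell in 24 of 36 cases and rose in 2, with a median of -0.44. The helicase subunits MCM6 and MCM4 were both lower. MCM6 had 394 and 408 CPM with LAA and 220.0 and 213 CPM with LAA+ATRA (log2 fold change -0.89 ± 0.09, adjusted p = 1.26e-05), and MCM4 had 441 and 438 CPM with LAA and 271 and 265 CPM with LAA+ATRA (log2 fold change -0.71 ± 0.09, adjusted p = 6.84e-05). The clamp loader subunit RFC3 had 50.3 and 47.5 CPM with LAA and 24.1 and 29.4 CPM with LAA+ATRA (log2 fold change -0.87 ± 0.13, adjusted p = 0.000313). ORC6, an origin recognition subunit, went the other way, with 101 and 99.8 CPM with LAA+ATRA and 44.4 and 40.9 CPM with LAA (log2 fold change 1.23 ± 0.11, adjusted p = 3.5e-06), as did the ribonucleotide reductase subunit RRM2 (0.48 ± 0.09), named after its values were seen. G2 and mitosis genes moved less. Of 31, 3 fell and 2 rose, shares below the 18% and 18.4% over all genes, with a median of -0.13. The checkpoint genes BUB1B (-0.31 ± 0.09) and MAD2L1 (-0.48 ± 0.12) and the securin PTTG1 (-0.35 ± 0.11) were lower, and the ubiquitin-conjugating enzyme UBE2C (0.36 ± 0.10) and, named after its values were seen, MKI67 (0.31 ± 0.11) were higher. These counts were not stable, since leaving out 1 library gave from 1 to 5 genes lower and from 0 to 4 higher, and of the 5 genes MAD2L1 alone was called whichever library was left out.

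Among G1 cyclins, cyclin-dependent kinases and their inhibitors, 7 of 24 rose and 4 fell, with a median of -0.10. The share that fell was near the 18% of all genes tested, of which 18.4% rose. The inhibitors CDKN1A, which encodes p21, and CDKN2D, which encodes p19, had 35.1 and 29.6 CPM with LAA+ATRA and 6.85 and 7.04 CPM with LAA (log2 fold change 2.22 ± 0.15, adjusted p = 3.84e-07) and 64.2 and 53.7 CPM with LAA+ATRA and 15.8 and 17.3 CPM with LAA (log2 fold change 1.83 ± 0.13, adjusted p = 5.16e-07). E2F2, a factor of the S-phase programme, had 62.8 and 73 CPM with LAA+ATRA and 23 and 23.4 CPM with LAA (log2 fold change 1.55 ± 0.12, adjusted p = 1.76e-06). CCND2, cyclin D2, had 36.1 and 30.9 CPM with LAA and 10.3 and 12.4 CPM with LAA+ATRA (log2 fold change -1.56 ± 0.15, adjusted p = 6.74e-06). The groups did not overlap for any of the 4. Without LAA replicate 2, 2 members were called lower. Of 28 apoptosis regulators, 13 rose and 4 fell, with a median of 0.34. The survival factors moved apart, with BCL2 at 29.3 and 31.2 CPM with LAA and 12 and 15.9 CPM with LAA+ATRA (log2 fold change -1.11 ± 0.16, adjusted p = 0.000151) and MCL1 at 182 and 183 CPM with LAA+ATRA and 116 and 123 CPM with LAA (log2 fold change 0.61 ± 0.10, adjusted p = 0.000339). BMF, a proapoptotic BH3-only gene, had 63.6 and 57.7 CPM with LAA+ATRA and 19.1 and 20.5 CPM with LAA (log2 fold change 1.61 ± 0.11, adjusted p = 3.21e-07). TNFRSF10B, a death receptor for TRAIL, had 54.8 and 54.6 CPM with LAA and 29.6 and 24.4 CPM with LAA+ATRA (log2 fold change -1.02 ± 0.11, adjusted p = 2.67e-05). The other falls were HRK and BBC3 (-0.63 ± 0.22), which was named after its values were seen and was not called without either vehicle library (adjusted p = 0.0525 and 0.0523), LAA replicate 2 (0.297) or LAA+ATRA replicate 2 (0.27).

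Metabolic genes changed in both directions. In the list of unfolded protein and amino acid stress, 12 of 26 fell and 5 rose, with a median of -0.29. The serine synthesis enzymes PSAT1 and PHGDH had 184 and 171 CPM with LAA and 33.9 and 36.5 CPM with LAA+ATRA (log2 fold change -2.34 ± 0.10, adjusted p = 1.31e-08) and 450.3 and 473 CPM with LAA and 183 and 158 CPM with LAA+ATRA (log2 fold change -1.44 ± 0.10, adjusted p = 6.13e-07), and the amino acid transporter SLC7A5 278 and 324 CPM with LAA and 79.8 and 88.3 CPM with LAA+ATRA (log2 fold change -1.84 ± 0.12, adjusted p = 2.89e-07). In each of the 3 the LAA libraries stood well above the LAA+ATRA libraries. In glycolysis and the pentose phosphate pathway, 8 of 28 rose and 8 fell, with a median of -0.11. Of all genes tested, 18.4% rose and 18% fell. The hexokinases moved in opposite directions, with HK3 at 273 and 226 CPM with LAA+ATRA and 7.59 and 8.67 CPM with LAA (log2 fold change 4.94 ± 0.14, adjusted p = 5.23e-10) and HK2 at 141 and 154 CPM with LAA and 46.7 and 32.3 CPM with LAA+ATRA (log2 fold change -1.9 ± 0.18, adjusted p = 7.8e-06). PGD, the pentose phosphate dehydrogenase that yields NADPH, had 1172 and 1260.1 CPM with LAA+ATRA and 372 and 376 CPM with LAA (log2 fold change 1.7 ± 0.10, adjusted p = 7.66e-08), and the lactate carrier SLC16A1 146 and 151 CPM with LAA and 53 and 72.6 CPM with LAA+ATRA (log2 fold change -1.24 ± 0.14, adjusted p = 2.33e-05). Without LAA replicate 1, 5 genes of this list were called higher.

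Hypoxia and HIF targets had 11 of 23 genes lower and 6 higher, with a median of -0.48. PDK1, the kinase that holds pyruvate back from the mitochondria, had 732 and 649.7 CPM with LAA and 298 and 211 CPM with LAA+ATRA (log2 fold change -1.44 ± 0.14, adjusted p = 1.09e-05). PFKFB3, which activates glycolysis, had 132 and 125 CPM with LAA+ATRA and 45.1 and 55.4 CPM with LAA (log2 fold change 1.35 ± 0.12, adjusted p = 3.15e-06). Nuclear-encoded oxidative phosphorylation genes had 10 of 30 lower and 1 higher, with a median of -0.21. Over all genes tested, 18% were lower and 18.4% higher. UQCRC2 of complex III had 295 and 308 CPM with LAA and 210.2 and 197 CPM with LAA+ATRA (log2 fold change -0.57 ± 0.10, adjusted p = 0.00068), ATP5F1B of the ATP synthase 719 and 772 CPM with LAA and 519 and 519 CPM with LAA+ATRA (log2 fold change -0.52 ± 0.10, adjusted p = 0.00112) and SDHA of complex II 163 and 175 CPM with LAA and 127 and 108 CPM with LAA+ATRA (log2 fold change -0.53 ± 0.11, adjusted p = 0.00189). The gene that rose, NDUFA1 (0.53 ± 0.19), was named after its values were seen and was not called without any 1 of the vehicle or LAA libraries or LAA+ATRA replicate 1 (adjusted p from 0.06 to 0.44). Without LAA replicate 1 or without LAA replicate 2, 6 genes were called lower.

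Mitochondrially encoded transcripts moved opposite to the nuclear-encoded list. Of the 13 protein-coding transcripts of mitochondrial DNA, 12 rose with ATRA added to LAA, with a median log2 fold change of 0.97. Their summed level was 29516 and 26516 CPM with LAA and reached 44829 and 59710 CPM in the LAA+ATRA libraries, so the groups did not overlap, although the LAA+ATRA libraries differed from each other. MT-ND6, a complex I subunit and the only one coded on the light strand, had 710.5 and 728 CPM with LAA+ATRA and 310.4 and 298 CPM with LAA (log2 fold change 1.24 ± 0.10, adjusted p = 1.5e-06). MT-CYB of complex III had 1529 and 2169.9 CPM with LAA+ATRA and 791 and 712 CPM with LAA (log2 fold change 1.3 ± 0.17, adjusted p = 9.12e-05), MT-CO2 of complex IV 4435 and 6179.9 CPM with LAA+ATRA and 2758 and 2386 CPM with LAA (log2 fold change 1.05 ± 0.14, adjusted p = 0.000113) and MT-ND3 of complex I 843 and 881 CPM with LAA+ATRA and 526 and 459 CPM with LAA (log2 fold change 0.81 ± 0.10, adjusted p = 8.38e-05). MT-ND4L, named after its values were seen, had 229 and 391 CPM with LAA+ATRA and 291 and 249.5 CPM with LAA and was not called (log2 fold change 0.2 ± 0.29, adjusted p = 0.635). The median over the 13 fell to 0.78 when LAA+ATRA replicate 2 was left out and reached 1.15 when the other LAA+ATRA library was, and 12 were called in each case.

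The same 13 transcripts were also compared when ATRA was given without LAA. Their sum was 32655 and 31285 CPM in vehicle and 39035 and 34533 CPM with ATRA. The median log2 fold change was 0.31, and 3 of 13 rose, a share near the 21.9% over all genes tested. The lowest changes without LAA were -0.74 for MT-ND4L and -0.31 for MT-ND4, neither of which was called (adjusted p = 0.061 and 0.0838). For 12 of the 13, both LAA+ATRA libraries lay above both ATRA libraries, a share that was not computed over all genes. The interaction, which is the change with LAA minus the change without it, was above 0 on the log2 scale for all 13, from 0.44 to 0.98 with a median of 0.81. Of the 13, 12 had an unadjusted interaction p under 0.05 in the edgeR quasi-likelihood test, against 4.98% of all genes tested. An adjusted p under 0.05 was reached by 0 of them, and the lowest adjusted p was 0.383. Transcripts of 1 organelle genome share their source and are not independent of each other. The share of these transcripts in poly-T selected RNA can also move with how they are captured, which was not tested.

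**Figure D4:**
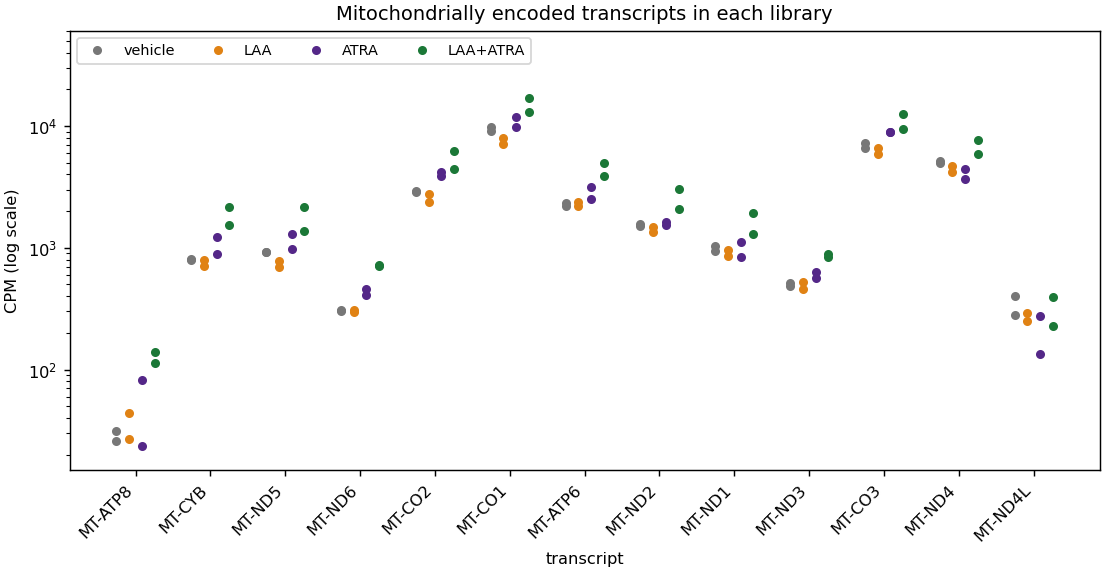
Each point is the CPM, on a log axis, of 1 mitochondrially encoded transcript in 1 of the 8 libraries, coloured by group, with the transcripts ordered by their change with ATRA added to LAA. For 12 of the 13 transcripts both LAA+ATRA libraries lie above the other groups, and MT-ND4L overlaps with them. The share of all genes that lie so was not computed.

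TET enzymes and other genes of DNA methylation changed in both directions and modestly, with 8 of 22 higher, 6 lower and a median of 0.18. TET2, the enzyme named in the series title, had 8.78 and 9.96 CPM with LAA+ATRA and 7 and 5.1 CPM with LAA (log2 fold change 0.63 ± 0.21, adjusted p = 0.0318). Both libraries with LAA+ATRA were above both with LAA, but the call was lost with LAA replicate 2 left out (log2 fold change 0.42, adjusted p = 0.238), and likewise for LAA+ATRA replicate 1 (0.73, 0.0503) and replicate 2 (0.54, 0.144). TET3, more abundant, had 52 and 52.1 CPM with LAA+ATRA and 30.7 and 36.4 CPM with LAA (log2 fold change 0.64 ± 0.13, adjusted p = 0.00245), and TET1, nearly silent with ATRA, 3.42 and 3.47 CPM with LAA and 0.839 and 1.06 CPM with LAA+ATRA (log2 fold change -1.85 ± 0.43, adjusted p = 0.0053). The de novo methyltransferase DNMT3A had 37.3 and 37.2 CPM with LAA+ATRA and 20.4 and 20.6 CPM with LAA (log2 fold change 0.86 ± 0.11, adjusted p = 7.8e-05), the methyl-DNA reader MBD2 113 and 114 CPM with LAA+ATRA and 75.1 and 74.6 CPM with LAA (log2 fold change 0.61 ± 0.10, adjusted p = 0.000621) and IDH1, which makes 2-oxoglutarate, 434 and 449 CPM with LAA+ATRA and 284 and 268 CPM with LAA (log2 fold change 0.68 ± 0.10, adjusted p = 0.000225). CXXC5, a CXXC zinc finger protein, had 54.9 and 59 CPM with LAA and 35.6 and 30.1 CPM with LAA+ATRA (log2 fold change -0.8 ± 0.11, adjusted p = 0.000151). WT1, a factor known to recruit TET2 and named after its values were seen, had 0.397 and 0.841 CPM with LAA and no counts with LAA+ATRA (adjusted p = 0.0124). It was not called without LAA replicate 2 (adjusted p = 0.0651), LAA+ATRA replicate 1 (0.0512) or LAA+ATRA replicate 2 (0.057). Without LAA replicate 2, 3 genes of the list were called lower.

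Of 30 tested histone demethylases and other 2-oxoglutarate dioxygenases, 5 rose and 6 fell, a share near that of all genes, with a median of -0.11. The demethylase KDM2B had 118 and 105 CPM with LAA+ATRA and 61.4 and 67.9 CPM with LAA (log2 fold change 0.78 ± 0.11, adjusted p = 0.000198) and KDM7A 5.71 and 6.93 CPM with LAA and 2.01 and 1.91 CPM with LAA+ATRA (log2 fold change -1.68 ± 0.29, adjusted p = 0.000641). The ribosomal oxygenase RIOX2 had 66.7 and 67.9 CPM with LAA and 31.5 and 41.6 CPM with LAA+ATRA (log2 fold change -0.88 ± 0.13, adjusted p = 0.000298) and EGLN2, a HIF prolyl hydroxylase, 185 and 163 CPM with LAA+ATRA and 117 and 128 CPM with LAA (log2 fold change 0.51 ± 0.10, adjusted p = 0.00176). The number called higher was 2 without LAA replicate 1, 3 without LAA replicate 2 and 3 without LAA+ATRA replicate 2. Genes of ascorbate transport and recycling had 2 of 14 higher and 3 lower, again a share near that of all genes, with a median of -0.02. The ascorbate transporter SLC23A2 was not called, with 50.6 and 53.9 CPM with LAA+ATRA and 60.1 and 63.7 CPM with LAA (log2 fold change -0.24 ± 0.10, adjusted p = 0.0724). SLC2A3, a glucose carrier that also takes up dehydroascorbate, had 52.7 and 54.6 CPM with LAA and 30.3 and 17.5 CPM with LAA+ATRA (log2 fold change -1.17 ± 0.22, adjusted p = 0.00131). CYBRD1, a ferric reductase that uses ascorbate, had 84.9 and 81.6 CPM with LAA+ATRA and 44 and 45.7 CPM with LAA (log2 fold change 0.89 ± 0.12, adjusted p = 0.0001), and GSTO1, which reduces dehydroascorbate, 521 and 326 CPM with LAA+ATRA and 241 and 234 CPM with LAA (log2 fold change 0.84 ± 0.20, adjusted p = 0.00598). GSTO1 was not called without LAA+ATRA replicate 1 (log2 fold change 0.47, adjusted p = 0.0762), which left 1 gene called higher.

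Among 24 tested NRF2 antioxidant targets, 7 rose and 6 fell, against 18.4% and 18% of all genes tested, with a median of -0.10. FTL, the ferritin light chain, was one of the most abundant transcripts, with 15288 and 18999 CPM with LAA+ATRA and 6034 and 5785 CPM with LAA (log2 fold change 1.54 ± 0.12, adjusted p = 1.4e-06). PRDX1, a peroxiredoxin, had 446 and 425 CPM with LAA and 132 and 157 CPM with LAA+ATRA (log2 fold change -1.59 ± 0.13, adjusted p = 1.73e-06), and the mitochondrial superoxide dismutase SOD2 118 and 113 CPM with LAA and 59.4 and 55.6 CPM with LAA+ATRA (log2 fold change -1.01 ± 0.10, adjusted p = 1.31e-05). HMOX1, haem oxygenase, had 11.3 and 13 CPM with LAA+ATRA and 7.05 and 5.46 CPM with LAA (log2 fold change 0.96 ± 0.19, adjusted p = 0.00219). Without LAA replicate 1, 3 genes of this list were called lower. Of 15 iron-handling genes, 5 rose and 5 fell, with a median of -0.15, among them NCOA4, the receptor that delivers ferritin to lysosomes, at 235 and 252 CPM with LAA+ATRA and 155 and 146 CPM with LAA (log2 fold change 0.69 ± 0.10, adjusted p = 0.000206). The falls in iron handling numbered 2 without LAA replicate 1, 0 without LAA replicate 2 and 1 without LAA+ATRA replicate 1, and the rises 3 without LAA replicate 2.

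The same ATRA step without LAA, ATRA alone against vehicle, shares no library with the comparison above. In that step 6428 of 14995 genes were called (42.9%), 3280 higher (21.9%) and 3148 lower (21%). Of the genes called with LAA, 4695 were also called without it, which is 86.1% of the calls with LAA and 73% of the calls without it. In 4694 of these the direction was the same. Across the 14995 genes, which are not independent replicates, the log2 fold changes of both steps had a Pearson correlation of 0.73 and a Spearman correlation of 0.80. For the 4 markers the changes with and without LAA were 7.06 and 6.97 for CD38, -4.2 and -3.96 for NOG, and -3.59 and -3.95 for CCN3, while DAAM2 had no counts in either control group and 52.2 and 33.4 CPM with LAA+ATRA against 69.3 and 55.9 CPM with ATRA.

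The size of the response was slightly smaller with LAA. Of 2473 genes with a mean log2 change of at least 1 in size over both steps and the same sign in both, 67% changed less with LAA. The 1412 that were higher had a median log2 fold change of 1.46 with LAA and 1.67 without, and the 1061 that were lower had medians of -1.39 and -1.56. Taken library by library, the median difference from the mean of the matching controls on the log2(CPM + 1) scale was 1.03 and 0.99 in the LAA+ATRA libraries and 1.15 and 1.14 in the ATRA libraries for the higher genes. For the lower genes these medians were -0.90 and -0.91 with LAA and -0.98 and -1.01 without. The libraries of each group did not overlap in either direction, but both libraries of a group were set against the same control mean. Their values are thus not independent, genes are not replicates, and no test was made of this difference. Gene by gene, the interaction called 1 of 14995 genes (0.00667%) in the edgeR quasi-likelihood test, and 747 (4.98%) had an unadjusted p under 0.05. That gene is EIF3CL, a copy of the initiation factor gene EIF3C, and its change with ATRA added to LAA was itself not called (log2 fold change 0.49 ± 0.29, adjusted p = 0.223). Without LAA replicate 1 it was called (log2 fold change 1.16, adjusted p = 0.00858).

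**Figure D5:**
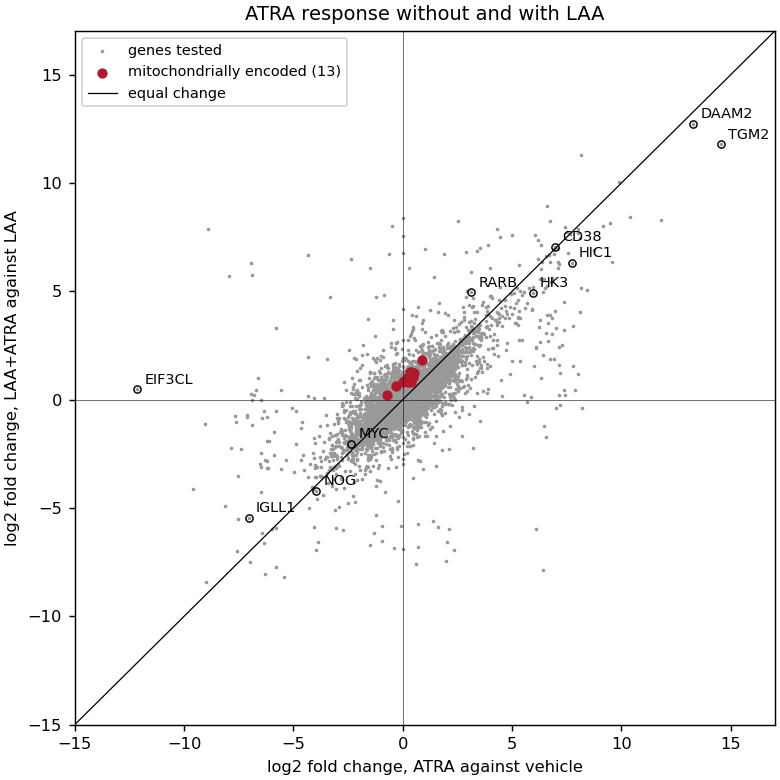
Each point is 1 of the 14995 genes tested, with the log2 fold change of ATRA against vehicle on the x axis and of LAA+ATRA against LAA on the y axis, and the line marks equal change. Most genes lie near the line, the 13 mitochondrially encoded transcripts lie above it, and EIF3CL stands apart at the left.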

How the data were processed

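RNA from U-937 cells was enriched with poly-T beads and sequenced after an NEBNext Ultra II library preparation, per the labels. The table deposited by the authors holds expected counts (estimated counts with decimals) for Ensembl genes, unscaled. Per the submitters' processing notes the tools were Salmon 1.8.0 and DESeq2 1.36.0, with GRCh38 and hg38 as builds. A further deposited table holds FPKM, computed by the authors in a way not given in the sources used here, nor are the annotation release and the strand setting. Estimated counts were rounded, which changed 16.5% of values. edgeR 4.0.16 (R 4.3.3) filtered genes with filterByExpr, scaled libraries by TMM and fitted 4 group means to all 8 libraries (4 residual and 8.2 prior degrees of freedom). All groups shared a single estimate of spread per gene. The median size of the log2 difference between the libraries of a group was 0.20 with LAA+ATRA, 0.21 with ATRA, 0.14 with LAA and 0.13 with vehicle. The standard errors do not reflect this difference between groups. Two-sided quasi-likelihood F tests were adjusted by Benjamini-Hochberg over all 14995 genes and called under 0.05. Log2 fold changes are given ± an approximate standard error, and levels as CPM in each library. That error is the size of the log2 fold change divided by the square root of its F statistic. Where a group had no counts, folds were bounded with 3 counts over that group, and ratios at 1 to 3 counts have an exact 95% interval for a ratio of Poisson rates, both covering counting error only. A value in parentheses after a gene's name, without a unit, is its log2 fold change from this fit.

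The members and lists were chosen with earlier results of these data known. Named genes were the 4 markers, the 12 largest rises and falls (adjusted p under 0.05, at least 5 CPM in the higher group, no overlap), up to 4 called members of each list, TET1, TET2, TET3, RARA, RARB, ITGAM and SLC23A2, the most abundant genes with no counts in one group and the largest interactions. The text names a part of these, and some list members that moved against their list, said to be chosen after their values were seen; some items are not reported here. Alternatives were RLE size factors, no filter, the replicate number as a block, only the libraries compared, leaving out each library, DESeq2 1.42.0, and limma 3.58.1 for genes of at least 1 FPKM, on log2(FPKM + 1) or with 0.1 as pseudocount. The edgeR script was tested on simulated data. Positions are from GENCODE 29, which may differ from the annotation of the authors.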

Additional observations from a re-analysis of the deposited data

Results flagged for a closer look

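EIF3CL was the 1 gene called in the main fit by the test of the interaction (adjusted p = 0.00106, edgeR quasi-likelihood test). With 2 libraries per group, genes not called were not shown to respond alike with and without LAA. EIF3CL had 22.5 and 34.3 CPM in vehicle, 33.3 and 15.4 with LAA, 0 and 0 with ATRA and 30.7 and 37.9 with LAA+ATRA. The 2 ATRA libraries alone were thus without counts. The gene is a near-identical copy of EIF3C, and how reads were divided between the copies was not tested here, so its values are uncertain.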

How the results depend on the processing

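In 13 of the 15 alternatives no gene called in both fits changed sign, and in each of the limma fits on FPKM 1 did. The number called ran from 3716 to 5917 when 1 library was left out, both ends being without LAA replicate 2 and without ATRA replicate 1, with 1778 to 2969 called lower. At least 2-fold changes numbered 1108 with limma on log2(FPKM + 1), which understates the change of low genes. The interaction called 136 genes without the low-count filter, 13 with DESeq2, 2 and 3 with limma on log2(FPKM + 1) and log2(FPKM + 0.1), and from 1 to 9 when 1 library was left out, the causes of which were not tested. With the replicate number as a block, 5153 genes were called, 2605 higher and 2548 lower, and deviations of same-numbered libraries had correlations from -0.07 to 0.08 (-0.04 between LAA and LAA+ATRA), so the numbers give no sign of pairing. Of single genes named, the log2 fold change of MT-ND4L, not called in any setting, ran from -0.23 without LAA+ATRA replicate 2 to 0.547 without LAA+ATRA replicate 1. With limma on log2(FPKM + 1) and log2(FPKM + 0.1) the sign also turned for MKI67 (-0.0387 and -0.0406). On both FPKM scales BBC3, BUB1B, CD47, CIITA, IFIT1, LRP5, MAD2L1, MAX, MCM4, MMP9, MX2, MXD3, NDUFA1, PTGER4, PTTG1, RRM2, SCARB1, TAP2, TET3 and TLR9 also lost the call. The calls of MKI67, NDUFA1, TAP2 and VCAN were lost with the replicate block, those of TAP2 and VCAN without the low-count filter, those of BBC3, TAP2 and TLR9 with only the libraries compared, and those of TAP2 and VCAN with DESeq2. The change of EIF3CL was called without the low-count filter (adjusted p = 0.00622) and without LAA replicate 1 (0.00858). TET2 was not called with DESeq2 (adjusted p = 0.0551) or on FPKM. With 2 libraries per group, genes at a few counts, such as WT1, VCAN and MMP9, have the least certain changes, and a library left alone in its group was assumed to vary like the other groups.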
